A study of Mus musculus with 8 samples.

Results

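Iron handling was followed in 10 genes of bone marrow-derived macrophages (BMDM): the uptake genes Tfrc, Slc11a2, Steap3 and Slc11a1, the ferritin genes Fth1 and Ftl1, the ferritin receptor gene Ncoa4, the exporter gene Slc40a1, and Ireb2 and Aco1, which encode the iron regulatory proteins. The genes were chosen by name, for their role, among the 55357 genes of the count table, and with results of these libraries already known. All 10 were listed in the table and all 10 had enough counts to be tested. Their differences between the groups are therefore a description of these libraries and not independent evidence of a response.

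The study asked what sphingosine d18:1, written So(d18:1), does to macrophages in steatohepatitis, and poly(A) RNA was sequenced from 4 control and 4 So(d18:1) libraries. Both groups were BMDM from C57BL/6J wild-type mice, grown with macrophage colony-stimulating factor. The So(d18:1) cells received 2 μM of the lipid in methanol for 6 h and the control cells received methanol for 6 h. The labels name no inflammatory stimulus, whereas the text of the study places these cells under inflammatory stimulation, and it calls the samples biologically independent without saying whether each culture came from its own mouse. The p-values set the difference between the groups against the spread between these libraries, and that spread may be in part technical. In bulk RNA, fewer cells of a type and less RNA per cell cannot be told apart.

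Cells take up iron bound to transferrin through the transferrin receptor, release and reduce it in endosomes, and pass it to the cytosol through the divalent metal transporter. Iron that is not used is stored in ferritin, returned from ferritin by autophagy, or exported through ferroportin, and macrophages are the main recyclers of iron from old red cells. When cytosolic iron is low, the iron regulatory proteins bind a hairpin called the iron-responsive element. Binding in the 5′ UTR blocks translation, as for ferritin and ferroportin, and binding in the 3′ UTR protects the message from decay, as for the transferrin receptor. The mRNA level of a gene with a 5′ element is therefore not a reading of its protein. Several of these genes, among them Tfrc, Slc11a2, Slc40a1 and Cp, are also textbook targets of hypoxia-inducible factors.

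The hairpins are shown because through them iron is known to act on ferritin, ferroportin, the transferrin receptor and the divalent metal transporter, 5 of the 10 messages. They were found in GENCODE transcripts of GRCm38 (mm10) as a C, an arm of 5 bases, the loop CAGTGN and a second arm that pairs with the first, G with T allowed. Each is 30 bases within a single exon, in the sense of the gene, with the 6 bases of the loop in capitals.
Fth1, 5′ UTR, chr19:9982731-9982760, plus strand: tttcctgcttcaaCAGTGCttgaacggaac
Ftl1, 5′ UTR, chr7:45459779-45459808, minus strand: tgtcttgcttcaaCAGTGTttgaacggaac
Slc40a1, 5′ UTR, chr1:45925465-45925494, minus strand: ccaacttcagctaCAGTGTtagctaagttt
Tfrc, 3′ UTR, chr16:32631218-32631247, plus strand: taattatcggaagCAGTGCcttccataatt
Tfrc, 3′ UTR, chr16:32631597-32631626, plus strand: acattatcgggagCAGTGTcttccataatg
Tfrc, 3′ UTR, chr16:32631662-32631691, plus strand: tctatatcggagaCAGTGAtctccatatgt
Tfrc, 3′ UTR, chr16:32631709-32631738, plus strand: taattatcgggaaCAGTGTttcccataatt
Slc11a2, 3′ UTR, chr15:100395153-100395182, minus strand: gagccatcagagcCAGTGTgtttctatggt

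The Fth1 and Ftl1 hairpins have the same arms, and Tfrc carries 4 matches in the 3′ UTR. The Slc11a2 hairpin meets the rule only with 1 extra base allowed in the second arm. A match is a description of letters and not of binding. In 5′ UTRs the strict form was present in 31 of 20916 genes (0.148%), and in 3′ UTRs in 129 of 21045 genes (0.613%). The form with 1 extra base was present in 233 of those 21045 3′ UTRs (1.11%).

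Total counts lay between 17748397 and 26088609 per library, and 14514 genes had enough counts to be tested. Levels are given as CPM, counts divided by the scaled library total, with scaling between libraries by TMM. Differences are log2 fold changes of So(d18:1) over control from edgeR's quasi-likelihood test, with a standard error (SE) and a p adjusted by Benjamini-Hochberg over all 14514 genes. A gene is called where that adjusted p is under 0.05. Of all tested genes 8.94% were called, 3.87% higher and 5.07% lower with So(d18:1). Of the 10 iron genes 4 were called, with Fth1 higher and Tfrc, Slc11a2 and Ncoa4 lower. By CPM the 4 libraries of each group did not overlap for 5 of the 10 genes, these 4 and Steap3, which was lower, against 15.0% of all tested genes. None of the 10 reached the threshold of the study's methods, an unadjusted p under 0.05 with a fold change of at least 1.5, by edgeR, DESeq2 or limma-voom, which 3.89% of all tested genes reached by edgeR. Of the 10 genes, 6 had an unadjusted p under 0.05 whatever their fold. The median log2 fold change was -0.046 for the 10 genes and 0.0037 for all tested genes.

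Macrophage markers were high in every library, with 10 genes summing to 32294 to 35053 CPM in the control group and 28042 to 33154 CPM with So(d18:1). Of these 10 genes 9 had lower and 1 had higher estimates with So(d18:1), and 3 were called, Cd68 (log2 fold change -0.22) and Mertk (-0.38) lower and Itgam (0.19) higher. Other lists moved with the groups as well. All 10 neutrophil markers were lower on average with So(d18:1), 6 of them called, and their sum was 1772 to 2345 CPM in the control group and 1399 to 1595 CPM with So(d18:1). All 15 mitosis genes had higher means, 2 of them called, with sums of 343 to 490 CPM and 521 to 809 CPM. So(d18:1) replicate 2 was the highest library for each of them. There Top2a was at 122 CPM, against 71.1 to 85.2 CPM in the other So(d18:1) libraries. By contrast, 15 S-phase genes summed to 344 to 393 CPM and 343 to 374 CPM. Markers of lymphocytes were low, at summed levels of 24.3 to 31.8 CPM and 16.0 to 22.2 CPM, and 2 of their 5 tested genes were called lower. Most of that sum was Cd4, 1 of the 2 called, at 20.2 to 25.1 CPM and 13.6 to 18.6 CPM. Cd3e, Cd3d and Ncr1 had too few counts to be tested. Dendritic cell markers summed to 19.8 to 27.4 CPM and 18.1 to 22.7 CPM, and those of fibroblasts and stroma to 6.88 to 10.4 CPM and 6.16 to 8.81 CPM, with 0 of 6 and 0 of 5 tested genes called by edgeR and 2 and 1 at an unadjusted p under 0.05. None of these markers was at 0 in all libraries. Markers of red cell precursors were near 0: 10 genes summed to 1.55 to 1.87 CPM in the control group and 1.40 to 1.67 CPM with So(d18:1). The part of any of these lists in the differences of the iron genes was not tested.

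**Figure D1:**
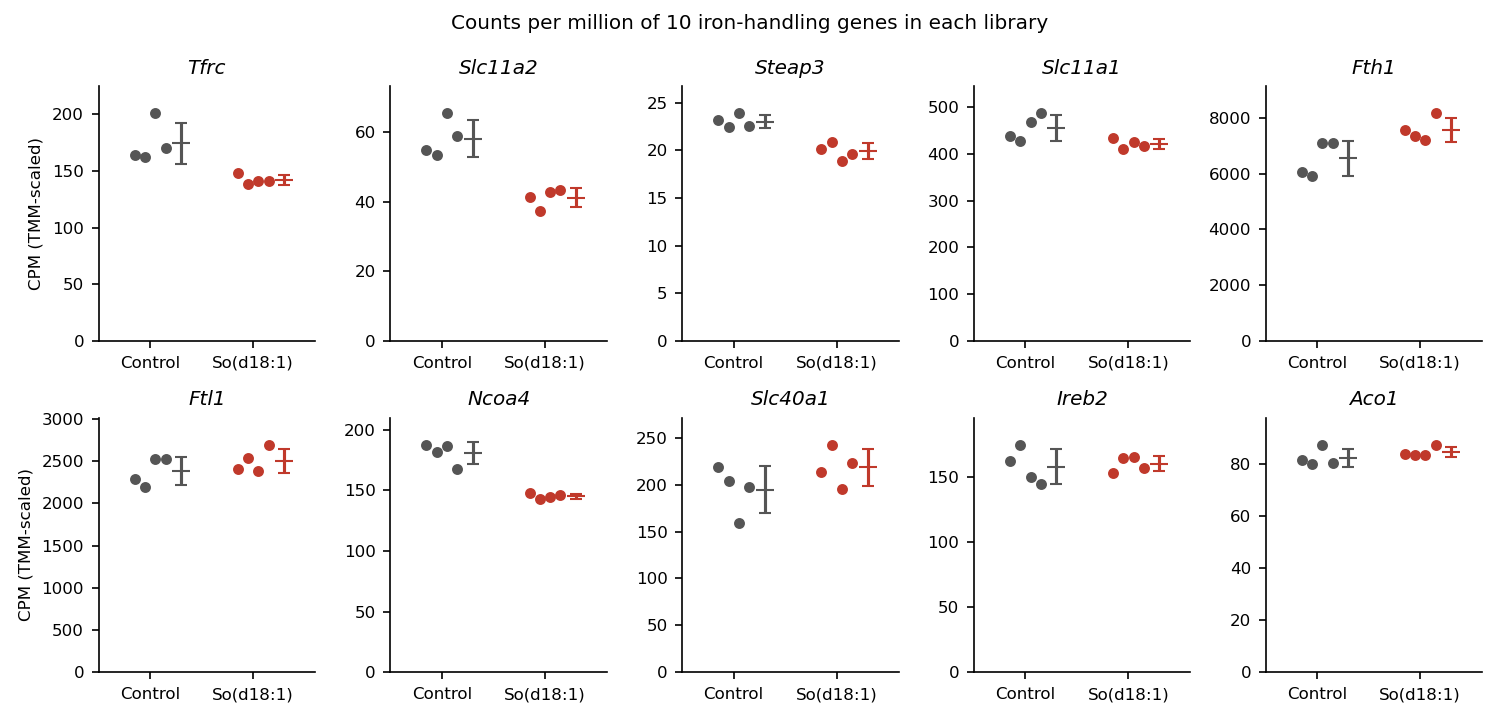
CPM of each of the 10 iron genes (vertical axes, each from 0) in the 4 control libraries (grey) and the 4 So(d18:1) libraries (red). Each point is a library, and the bar beside the points is the mean with the SD. The groups are apart for Tfrc, Slc11a2, Steap3, Ncoa4 and Fth1 and overlap for the other genes.

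Of the 4 uptake genes, Slc11a2 and Tfrc were called lower with So(d18:1), and Slc11a2 had the largest difference of the 10 genes. Slc11a2 (ENSMUSG00000023030, chromosome 15 from 100387898 to 100425072, minus strand) encodes the divalent metal transporter DMT1, which moves ferrous iron out of endosomes. Slc11a2 was at 55.0, 53.5, 65.5 and 58.9 CPM in control replicates 1 to 4 and at 41.3, 37.3, 42.9 and 43.4 CPM in So(d18:1) replicates 1 to 4. Every So(d18:1) library lay below every control library, and control replicate 3 was the highest. Slc11a2 fell by 29.2%, a log2 fold change of -0.50 (SE 0.066, 95% interval -0.63 to -0.36, adjusted p = 3.8e-05), and ranked 106 of the tested genes by p. Some of its counts are uncertain, since 4.27% of the 50-base words of its transcripts occur in other genes and an exon overlaps Gm5475 on the opposite strand.

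Tfrc (ENSMUSG00000022797, chromosome 16 from 32608920 to 32632794, plus strand) encodes the transferrin receptor, the entry point of transferrin iron and the message with the 4 hairpins shown above. Tfrc was at 164, 162, 201 and 170.0 CPM in control replicates 1 to 4 and at 148, 139, 141 and 141 CPM in So(d18:1) replicates 1 to 4. The So(d18:1) libraries were close together and all below the control libraries, of which replicate 3 stood highest. The decrease was 18.5%, a log2 fold change of -0.30 (SE 0.058, 95% interval -0.42 to -0.17, adjusted p = 0.00295). Without control replicate 3 the log2 fold change was -0.22, and Tfrc was still called. No 50-base word of Tfrc occurs in another gene.

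Steap3 (ENSMUSG00000026389, chromosome 1 from 120190757 to 120272705, minus strand) encodes the endosomal reductase that turns ferric into ferrous iron for DMT1. Steap3 was at 23.2, 22.5, 23.9 and 22.5 CPM in control replicates 1 to 4 and at 20.1, 20.9, 18.9 and 19.7 CPM in So(d18:1) replicates 1 to 4. The groups did not overlap, but Steap3 was not called (log2 fold change -0.21, SE 0.067, 95% interval -0.35 to -0.069, adjusted p = 0.0566). It lay just outside the threshold and passed it with upper quartile scaling (adjusted p = 0.0433) and with a filter of at least 10 counts in every library (adjusted p = 0.0462). With no filter on low counts the adjusted p was 0.125. Steap3 was called in 0 of the 8 fits with 1 library left out (adjusted p from 0.0681 to 0.144).

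Slc11a1 (ENSMUSG00000026177, chromosome 1 from 74375195 to 74386062, plus strand) encodes NRAMP1, the metal transporter of macrophage phagosomes. Slc11a1 was at 437, 426, 468 and 486 CPM in control replicates 1 to 4 and at 433, 409, 424 and 416 CPM in So(d18:1) replicates 1 to 4. So(d18:1) replicate 1 lay above control replicate 2, so the groups overlapped. The log2 fold change was -0.11 (SE 0.046, 95% interval -0.21 to -0.016) and Slc11a1 was not called (adjusted p = 0.141). C57BL/6 mice carry a form of Slc11a1 known to lack transport function, so its mRNA in this strain is no reading of that function.

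Fth1, the heavy ferritin chain with the ferroxidase site, was the called gene that was higher with So(d18:1). Fth1 (ENSMUSG00000024661) lies on chromosome 19 from 9980598 to 9985098, on the plus strand. Fth1 was at 6079, 5920.0, 7085 and 7107 CPM in control replicates 1 to 4 and at 7568, 7371, 7199.9 and 8168 CPM in So(d18:1) replicates 1 to 4. Control replicates 3 and 4 came close to So(d18:1) replicate 3, although the groups did not overlap. The increase was 15.7%, a log2 fold change of 0.21 (SE 0.061, 95% interval 0.082 to 0.34, adjusted p = 0.04). This lay just inside the threshold. The call was lost by limma-voom (adjusted p = 0.0639) and in 5 of the 8 fits with 1 library left out. The adjusted p was 0.107 without control replicate 1, 0.08 without control replicate 2, 0.0817 without So(d18:1) replicate 1, 0.0695 without So(d18:1) replicate 2 and 0.14 without So(d18:1) replicate 4.

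Ftl1 (ENSMUSG00000050708, chromosome 7 from 45457944 to 45459884, minus strand) encodes the light ferritin chain, which helps the iron core form. Ftl1 was at 2291, 2193, 2528 and 2518 CPM in control replicates 1 to 4 and at 2405, 2538, 2379 and 2691 CPM in So(d18:1) replicates 1 to 4. The groups overlapped, and Ftl1 was not called (log2 fold change 0.071, SE 0.053, 95% interval -0.038 to 0.18, adjusted p = 0.453). The estimate was 0.035 without control replicate 2 or without So(d18:1) replicate 4. Ftl1 has near-identical copies: 58.4% of its 50-base words occur in other genes, foremost Ftl1-ps1, which the annotation lists as protein-coding and which was at 24.3 to 38.5 CPM. Its exons also overlap Gm22133 on the same strand and Gm10252 on the opposite strand. With the counts of near-identical copies added to their genes, a step chosen after seeing the data, the log2 fold change of Ftl1 was 0.071 and that of Fth1 was 0.21.

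The ferritin messages were among the most abundant in the cells. Fth1 and Ftl1 together took 0.837%, 0.812%, 0.953% and 0.961% of all counts in control replicates 1 to 4, and 1.003%, 1.001%, 0.962% and 1.07% in So(d18:1) replicates 1 to 4. Within a library the ratio of heavy to light chain counts does not depend on the scaling. It was 2.65, 2.70, 2.80 and 2.82 in control replicates 1 to 4 and 3.15, 2.90, 3.03 and 3.03 in So(d18:1) replicates 1 to 4. The groups did not overlap, with a difference of mean log2 ratios of 0.14, where the SD of the 4 libraries was 0.043 in control and 0.047 with So(d18:1). The ratio of Fth1 to Tfrc counts, a ratio of messages and not of proteins, was 37.1, 36.5, 35.3 and 41.8 in control replicates 1 to 4. It was 51.1, 53.2, 51.2 and 58.0 in So(d18:1) replicates 1 to 4. These groups could not overlap, since neither gene overlapped between the groups and they differed in opposite directions. The mean ratios were 37.7 ± 2.86 in control and 53.4 ± 3.22 with So(d18:1) (SD, n = 4). These ratios use the counts by which the genes are described above and add no separate evidence.

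**Figure D2:**
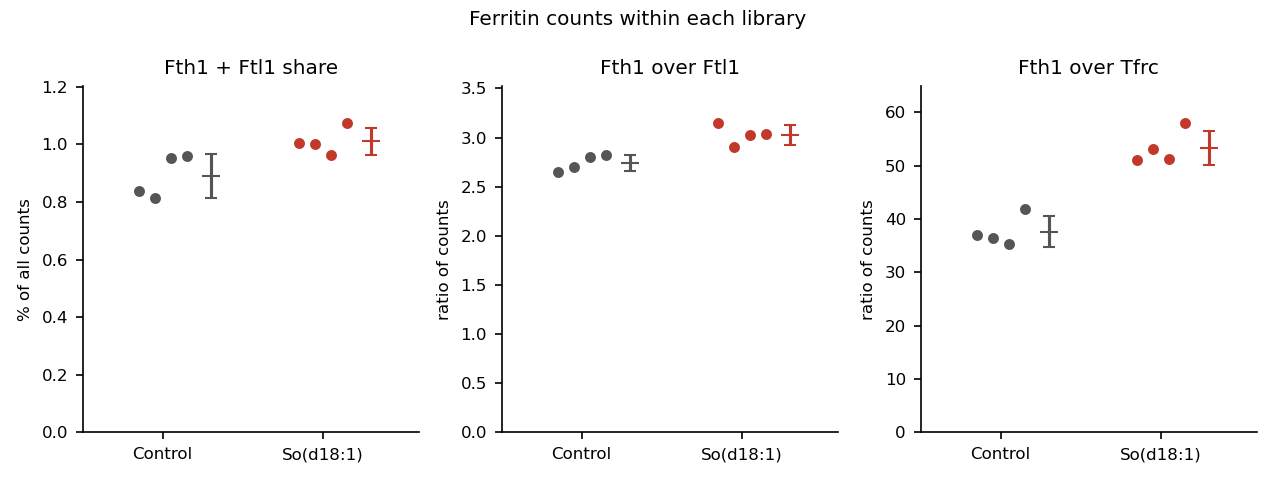
Share of all counts held by Fth1 and Ftl1 (left, in %), ratio of Fth1 to Ftl1 counts (middle) and ratio of Fth1 to Tfrc counts (right) in each library, with control in grey and So(d18:1) in red. Points are libraries and bars are the mean with the SD of 4 libraries. The Fth1 to Tfrc ratio is at most 41.8 in control and at least 51.1 with So(d18:1).

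Ncoa4 fell, and by the second-smallest p of the 10 genes. Ncoa4 (ENSMUSG00000056234, chromosome 14 from 32159865 to 32179855, plus strand) encodes the receptor that binds the heavy ferritin chain and carries ferritin to autophagosomes, a route called ferritinophagy. Ncoa4 was at 188, 181, 186 and 168 CPM in control replicates 1 to 4 and at 148, 143, 144 and 146 CPM in So(d18:1) replicates 1 to 4. The So(d18:1) libraries lay within a narrow range, all below the control libraries. The decrease was 19.7%, a log2 fold change of -0.32 (SE 0.044, 95% interval -0.41 to -0.22, adjusted p = 6.1e-05), and the gene ranked 120 by p.

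Reads of Ncoa4 can be split with a pseudogene. Of its 50-base words 17.9% occur in Gm6768, whose level was 30.9 to 32.3 CPM in the control group and 25.5 to 26.2 CPM with So(d18:1). Gm6768 was itself called lower (log2 fold change -0.28, SE 0.058, adjusted p = 0.00314). With the counts of near-identical copies added, the log2 fold change of Ncoa4 was -0.31 (adjusted p = 5.0e-05).

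Slc40a1 (ENSMUSG00000025993, chromosome 1 from 45908068 to 45926523, minus strand) encodes ferroportin, the only known exporter of iron from the cell. Slc40a1 was at 218, 204, 159.6 and 197 CPM in control replicates 1 to 4 and at 213, 242, 195 and 223 CPM in So(d18:1) replicates 1 to 4. Control replicate 3 was low and the groups overlapped. The log2 fold change was 0.17 (SE 0.10, 95% interval -0.061 to 0.40) and Slc40a1 was not called (adjusted p = 0.37). Its interval was the widest of the 10 genes. Without control replicate 3 the log2 fold change was 0.085, and without control replicate 1 it was 0.23. Slc40a1 passed the threshold with no filter on low counts (adjusted p = 0.0386) and with the replicate number as a block (adjusted p = 0.0246).

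The messages of the iron regulatory proteins differed little. Ireb2 (ENSMUSG00000032293, chromosome 9 from 54863789 to 54912530, plus strand) encodes IRP2, which is degraded when iron is plentiful. Ireb2 was at 162, 175, 149.9 and 145 CPM in control replicates 1 to 4 and at 153, 165, 166 and 157 CPM in So(d18:1) replicates 1 to 4. The groups overlapped (log2 fold change 0.020, SE 0.053, 95% interval -0.090 to 0.13, adjusted p = 0.866). The sign turned without control replicate 3 (-0.0029) and without control replicate 4 (-0.018), so Ireb2 has no direction in these libraries.

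Aco1 (ENSMUSG00000028405, chromosome 4 from 40143081 to 40198338, plus strand) encodes IRP1, which works as cytosolic aconitase when it holds an iron-sulfur cluster and binds RNA when it does not. Aco1 was at 81.7, 80.2, 87.2 and 80.3 CPM in control replicates 1 to 4 and at 83.7, 83.3, 83.6 and 87.4 CPM in So(d18:1) replicates 1 to 4. The groups overlapped, and the 95% interval of the log2 fold change of 0.038 reached from -0.057 to 0.13 (SE 0.046, adjusted p = 0.672). Because both proteins are set by degradation or by cluster loading, their mRNA levels are no reading of their RNA binding.

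**Figure D3:**
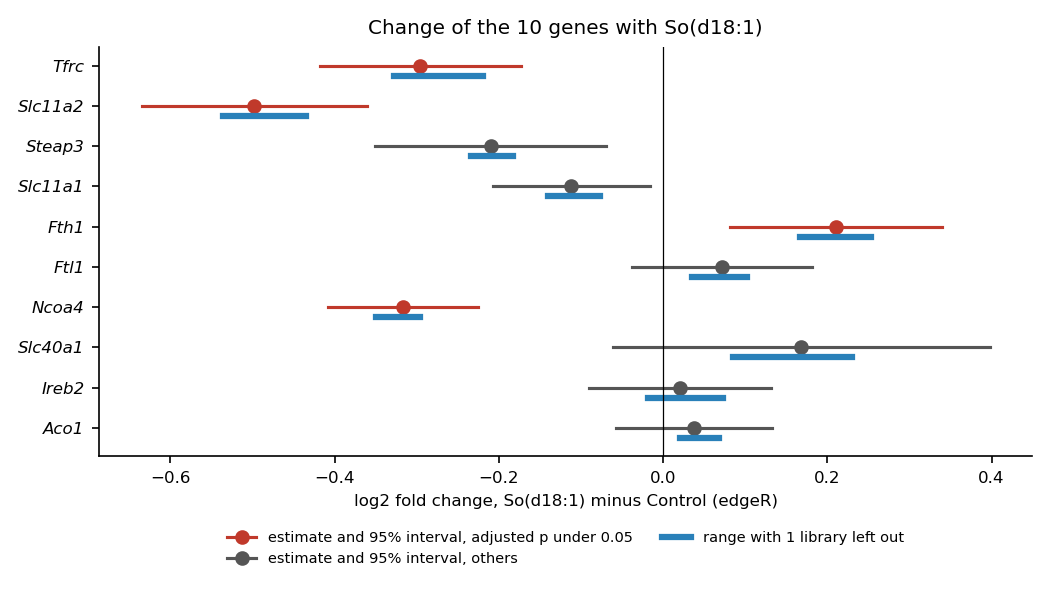
Log2 fold change of So(d18:1) over control for the 10 iron genes (horizontal axis, edgeR). Points and lines are the estimate with its 95% interval, in red where the adjusted p is under 0.05, and blue bars span the estimates with 1 library left out. The blue bars of Slc11a2, Tfrc and Ncoa4 stay below 0 and that of Ireb2 crosses 0.

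Leaving out any 1 of the 8 libraries kept Slc11a2, Tfrc and Ncoa4 called in 8 of 8 fits each. The log2 fold changes then ranged from -0.54 to -0.44 for Slc11a2, from -0.33 to -0.22 for Tfrc and from -0.35 to -0.30 for Ncoa4. The same 3 genes were called in each of the 9 other settings. Counts of the 10 genes lay between 359 and 210691 per library. The coefficient of variation over the control libraries ran from 2.89% for Steap3 to 12.8% for Slc40a1.

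The places of the hairpins can be set beside these differences. The 3 genes with a strict match in the 5′ UTR, Fth1, Ftl1 and Slc40a1, had log2 fold changes of 0.21, 0.071 and 0.17, and only Fth1 was called. The values of Ftl1 and Slc40a1 depended on single libraries, as given above. The genes with a match in the 3′ UTR, Tfrc and Slc11a2, had log2 fold changes of -0.30 and -0.50, and both were called. Of the 25 tested genes with a strict match in the 5′ UTR 1 was called, which was Fth1. Of the 93 tested genes with a strict match in the 3′ UTR 16 were called, 8 higher and 8 lower, among them Tfrc, where 8.94% of all tested genes were called. The form with 1 extra base, to which the Slc11a2 match belongs, was present in 166 tested 3′ UTRs, and 12 of these genes were called, 5 higher and 7 lower. Counts are per gene, so transcripts with and without a hairpin could not be told apart. Nothing about the activity of the iron regulatory proteins was measured.

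Levels of different genes can be compared only per length. Divided by the joined exon length of each gene, the control libraries held 1887 ± 183 CPM per kilobase of Fth1 and 1778 ± 125 CPM per kilobase of Ftl1 (SD, n = 4), which ranked 9 and 11 among the 14514 tested genes. Slc11a1 followed at 123 ± 7.46 CPM per kilobase. Tfrc had 28.2 ± 2.91, Slc40a1 had 21.6 ± 2.77, Ncoa4 had 19.3 ± 0.96, Aco1 had 18.3 ± 0.742 and Ireb2 had 16.7 ± 1.40 CPM per kilobase. Slc11a2 with 9.16 ± 0.844 and Steap3 with 4.02 ± 0.116 CPM per kilobase were the lowest. Over the control libraries the ranges overlapped between Fth1 and Ftl1, between Slc40a1 and Ncoa4, between Ncoa4 and Aco1 and between Aco1 and Ireb2. These neighbours have no order by this length. With the length of the longest transcript instead, Fth1 had 3175 ± 309 and Ftl1 2461 ± 173 CPM per kilobase (SD, n = 4). Slc40a1 (49.5) and Ncoa4 (38.2) then lay above Tfrc (35.6), and Ireb2 (27.4) above Aco1 (21.5). The middle of the order and the gap between the ferritin chains therefore depend on the choice of length. The ferritin chains stayed at the top and Slc11a2 and Steap3 at the bottom with either length.

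**Figure D4:**
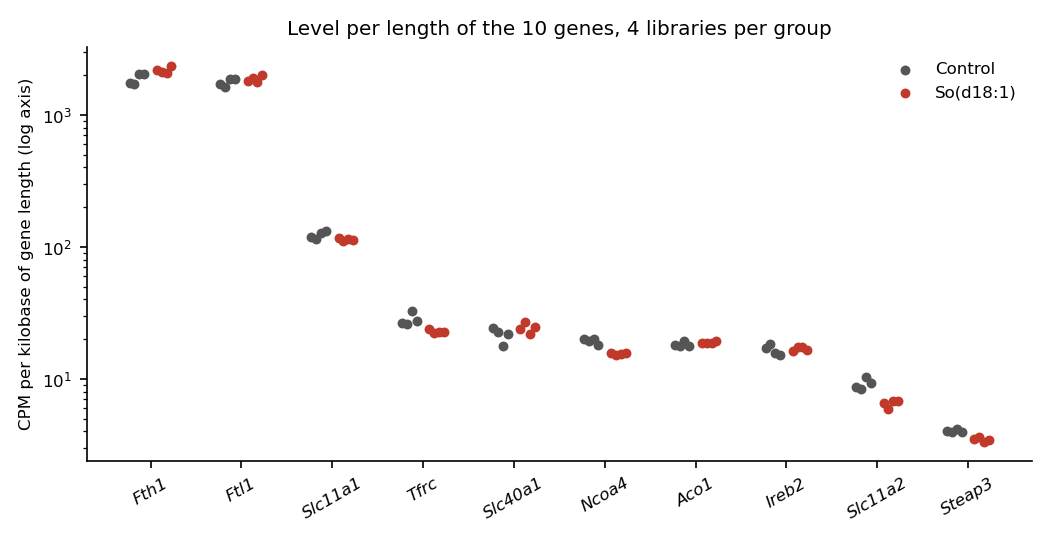
CPM per kilobase of joined exon length for the 10 iron genes, on a log axis, in control (grey) and So(d18:1) (red) libraries, each point being a library. Fth1 and Ftl1 lie at 1636 or above, Slc11a1 between 110.5 and 131 and the other genes at 32.5 or below.

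A wider list of 83 other genes of iron and heme handling was read from the same fit, and 69 of them had enough counts to be tested. Of these 3 were called, all lower, where 5.07% of all tested genes were called lower. Their estimates were lower for 41 and higher for 28 genes, with a median log2 fold change of -0.031. By the study's threshold 1 of the 69 genes passed, which was Cp. In the groups counted here, 1 of 12 tested genes of uptake and reduction was called, 1 of 5 of export and oxidation and 1 of 16 of heme synthesis and turnover. Of the 10 tested iron chaperones and regulators 0 were called by edgeR, DESeq2 or limma-voom, and 1 had an unadjusted p under 0.05.

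Cp, the plasma ferroxidase ceruloplasmin that loads exported iron onto transferrin, had the largest difference of the wider list. Cp was at 36.3, 33.5, 53.8 and 44.0 CPM in control replicates 1 to 4 and at 26.2, 17.3, 25.7 and 22.4 CPM in So(d18:1) replicates 1 to 4. The groups did not overlap, although the control libraries were spread widely. The log2 fold change was -0.88 (SE 0.20, 95% interval -1.35 to -0.41, adjusted p = 0.0389). The call was lost with no filter on low counts (adjusted p = 0.0773). It was also lost without control replicate 1 (0.0548), control replicate 4 (0.0995), So(d18:1) replicate 1 (0.0554), So(d18:1) replicate 3 (0.0604) or So(d18:1) replicate 4 (0.112), while the estimate stayed between -0.97 and -0.74.

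Blvra, encoding biliverdin reductase, which makes bilirubin from the product of heme oxygenase, was at 77.2, 78.8, 81.1 and 77.6 CPM in control replicates 1 to 4 and at 62.1, 69.2, 64.0 and 67.7 CPM in So(d18:1) replicates 1 to 4. Its log2 fold change was -0.26 (SE 0.048, adjusted p = 0.00144), and it was called in all 8 fits with 1 library left out. Slc39a8, encoding the metal importer ZIP8, averaged 15.9 ± 0.821 CPM over the control libraries and 12.9 ± 1.59 CPM over those with So(d18:1) (SD, n = 4), a log2 fold change of -0.30 (SE 0.092, adjusted p = 0.0466). The call of Slc39a8 was weak and held only without So(d18:1) replicate 1 (adjusted p = 0.0315) among the 8 fits with 1 library left out, with adjusted p from 0.0567 to 0.145 in the other fits.

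**Figure D5:**
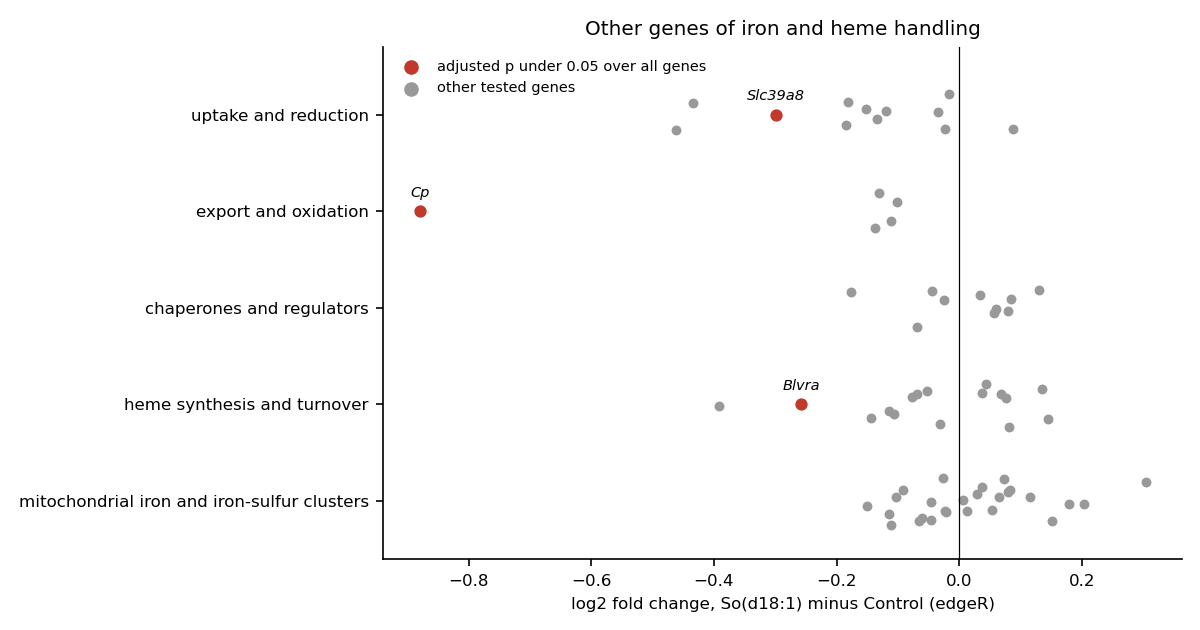
Log2 fold change of So(d18:1) over control (horizontal axis, edgeR) for the 69 tested genes of the wider list, in rows by role, with vertical scatter within a row for legibility only. Red points have an adjusted p under 0.05 over all genes tested. The 3 red points, Cp, Slc39a8 and Blvra, all lie below 0.

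Of the other genes of iron uptake, none named here was called in the main edgeR fit, with all 8 libraries, TMM and no block. Trf, encoding transferrin, averaged 1205 ± 139 CPM over the control libraries and 1061 ± 106 CPM over those with So(d18:1) (SD, n = 4), and its log2 fold change was -0.18 (adjusted p = 0.286, but 0.0104 with the replicate number as a block). Without control replicate 3 it was -0.11 and without So(d18:1) replicate 2 it was -0.12. Cd163 and Lrp1, receptors for hemoglobin with haptoglobin and for heme with hemopexin, had log2 fold changes of -0.13 (adjusted p = 0.274) and -0.034 (adjusted p = 0.673). Cd163 had -0.20 without control replicate 3 and -0.070 without control replicate 2, and Lrp1 had -0.018 without So(d18:1) replicate 4. Slc39a14, the importer of iron not bound to transferrin, had -0.15 (adjusted p = 0.323). Lcn2 and Ltf, which encode the iron-binding proteins lipocalin 2 and lactoferrin, are named here after their values were seen. Both are also neutrophil granule genes, and both were below every control library in every So(d18:1) library. In the main edgeR fit neither was called, with log2 fold changes of -0.46 (adjusted p = 0.0666) and -0.43 (adjusted p = 0.0617). By DESeq2 both were called (adjusted p = 0.00848 for Lcn2 and 0.00914 for Ltf), as they were with the replicate number as a block (0.0298 and 0.00199). Lcn2 was also called without control replicate 2 (adjusted p = 0.0048). Ltf was also called with upper quartile scaling (adjusted p = 0.0462), with at least 10 counts in every library (0.0493) and without control replicate 1 (0.0324), 2 (0.018) or 3 (0.0268). The neutrophil markers moved the same way, with the sums given above, and their part in Lcn2 and Ltf was not tested. The ferrireductase gene Cybrd1 had at most 6 counts in any library and was not tested.

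Hmox1, encoding the heme oxygenase that frees iron from heme, was at 302, 281, 440 and 425 CPM in control replicates 1 to 4 and at 276, 256, 275 and 297 CPM in So(d18:1) replicates 1 to 4. Control replicates 3 and 4 stood far above the other 6 libraries, and the groups overlapped. The log2 fold change of -0.39 (SE 0.17, 95% interval -0.80 to 0.011) was not called (adjusted p = 0.224). The heme transporter gene Slc48a1 had a log2 fold change of -0.068 (adjusted p = 0.501), which became -0.11 if control replicate 2 and -0.029 if control replicate 4 was left out, and the heme exporter gene Flvcr1 one of -0.14 (adjusted p = 0.0775). Flvcr1 averaged 71.1 ± 3.11 CPM over the control libraries and 64.6 ± 0.225 CPM over those with So(d18:1) (SD, n = 4), without overlap.

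Hfe, which tunes hepcidin signalling and binds the transferrin receptor, averaged 319 ± 10.8 CPM over the control libraries and 291 ± 13.1 CPM over those with So(d18:1) (SD, n = 4). Its log2 fold change of -0.13 was not called in the main edgeR fit (adjusted p = 0.0687). Hfe was called by DESeq2 (adjusted p = 0.0384), with upper quartile scaling (0.0486) and without So(d18:1) replicate 4 (0.0286). The ferroxidase gene Heph had at most 11 counts in any library and was not tested. Of the iron chaperones, Pcbp1, which loads ferritin, had a log2 fold change of -0.026 (adjusted p = 0.808) and Pcbp2 one of 0.084 (adjusted p = 0.22). Fbxl5, the iron sensor that marks IRP2 for degradation, had 0.079 (95% interval -0.019 to 0.18, adjusted p = 0.332). Slc25a37, the mitochondrial iron importer mitoferrin, had -0.065 (95% interval -0.16 to 0.027, adjusted p = 0.41).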

How the data were processed

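Poly(A) RNA of 4 control and 4 So(d18:1) BMDM libraries was analysed. The submitters' processing notes name Trim Galore 0.6.7 for trimming, HISAT2 2.2.1 for alignment to mm10 and featureCounts 2.0.1 for counting. The deposited table holds raw read counts, a whole number for each gene in each library, which the authors had not scaled. Strand and multiple-match settings are not given in the sources used here, so genes with near-identical copies or overlapping exons are uncertain. Columns were assigned to libraries through their names, and symbols came from GENCODE M21 (52081 of 55357 identifiers).

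Counts were filtered by filterByExpr, scaled by TMM and tested with edgeR 4.0.16 (quasi-likelihood, robust) in R 4.3.3, with Benjamini-Hochberg adjustment. The SE is the absolute log2 fold change over the square root of F. The biological coefficient of variation was 0.0657. The pipeline was tested on simulated data. The precision is set by 4 libraries per group. Replicates differed by more than counting noise, with a chi-square per gene from 2.75 to 12.1. It was 2.75 between control replicates 1 and 2 and 3.76 between 3 and 4. Across these pairs it was 5.68 to 12.1. Fth1, Hmox1, Cp, Lcn2 and Ltf were among the genes higher in control replicates 3 and 4 than in 1 and 2, and Ireb2 among those lower. The neutrophil markers S100a8, S100a9 and Ngp were also higher there, while Retnlg and Csf3r did not split this way. The labels name no batch, and the cause was not tested. The members, the wider list, the markers, the tests and the rule for naming genes were chosen with earlier results of these data known. That rule named the 10 members, every called gene of the wider list and 15 genes of that list whatever their values, Cp among them. Lcn2 and Ltf lie outside the rule. The result of 1 further gene of the wider list is not reported here, and the counts of that list leave it out. Alternatives were other scalings and filters, a replicate block, DESeq2 1.42.0, limma-voom (limma 3.58.1), the longest transcript as length, each library left out in turn and, chosen after seeing the data, the counts of near-identical copies added.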

Additional observations from a re-analysis of the deposited data

Results flagged for a closer look

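Among 58 groups of 4 libraries examined (each named tested gene and the Fth1 ratios, on the log2 scale), 1 had a library far from the others by Dixon's ratio, where chance alone flags about 1 in 20 groups. In the So(d18:1) libraries, Aco1 in replicate 4 lay at a log2 CPM of 6.45, while the other 3 libraries lay between 6.38 and 6.39, a ratio of 0.899, above the critical value for 4 libraries. Without that library the log2 fold change of Aco1 was 0.021 and Aco1 was not called (adjusted p = 0.867).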

How the results depend on the processing

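The number of iron genes called among the 10 was 4 with all 8 libraries, 3 or 4 with any 1 library left out, and 3 (limma-voom) to 5 in the other settings. The number called among all genes was 1298, and from 816 (without So(d18:1) replicate 2) to 1371 with 1 library left out. The count of the wider list was the least stable. It was 3, but 5 with upper quartile scaling in place of TMM, 6 with DESeq2's Wald test and from 1 to 6 with 1 library left out, the lowest without control replicate 4 and the highest without control replicate 2. The cause was not tested. The log2 fold change turned sign for Ireb2 without control replicate 3 (-0.0029) or control replicate 4 (-0.018) and for Pcbp1 without control replicate 3 (0.019), and neither gene was called in any setting. With 1 library left out, the range was -0.018 to 0.073 for Ireb2 and -0.065 to 0.019 for Pcbp1. The difference in the log2 ratio of Fth1 to Ftl1 was 0.14, and from 0.12 to 0.16 with 1 library left out.

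The labels do not say whether the replicate numbers pair the libraries. Over all tested genes the deviations of same-numbered libraries correlated at -0.0035, 0.10, 0.033 and 0.0091. Those of differently numbered libraries correlated at -0.136 to 0.107. Such a correlation cannot decide pairing for single genes. The SE with a block was 0.0801 for Cp, against 0.196 without, and 0.0719 for Steap3, against 0.0675 without. With the replicate number as a block 1781 genes were called, 808 higher and 973 lower. Of the 10 iron genes 5 were called, 2 higher and 3 lower. Of the wider list 7 were called, and these 7 were all lower.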
